A study of Bos grunniens with 9 samples.

Results

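Ribosome footprints of 10 genes known for their expression in oocytes and germ cells were examined in yak ovaries. The genes were chosen by symbol for their known roles, and all 10 were found among the 21652 genes of the deposited tables, each under 1 identifier. They are ZP2, ZP3 and ZP4 of the egg coat, the growth factors GDF9 and BMP15, the maternal-effect genes NLRP5, OOEP and ZAR1, and the germ cell RNA-binding genes DAZL and DDX4. Ribosome profiling sequences the short pieces of mRNA that ribosomes shield from nuclease, so a count here is a footprint on a message under translation.

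Whole ovarian tissue of yaks (Bos grunniens) aged 6 years was profiled in triplicate libraries, described as 3 biological replicates, for each of 3 stages. These were anestrus, sampled in April, estrus, sampled in August, and pregnancy, sampled in December, and the ovary was the ipsilateral one. No group carried an allele or received an agent. Stage and month cannot be told apart, and no label ties a replicate to an animal. The labels' wording, 3 yaks in different stages with 3 biological replicates, leaves unclear whether the 9 libraries came from 9 animals or fewer. The p-values therefore measure the spread between these libraries, which may be technical.

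The oocyte is enclosed by somatic granulosa cells in the follicle, and it stores mRNAs and proteins that the early embryo uses before its own genome is active. As it grows it secretes the zona pellucida, a glycoprotein coat that sperm bind and cross at fertilization. It also secretes GDF9 and BMP15, members of the TGF-beta family that act on the surrounding granulosa cells. An ovary holds few oocytes among many stromal, vascular and follicular cells. In such bulk tissue, fewer oocytes in a sample and less RNA or translation per oocyte cannot be told apart.

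The 9 libraries held 95.1 M counts in all (M, 1e6), from 1.47 M in pregnancy replicate 3 to 28.9 M in anestrus replicate 2. A floor of 3 counts corresponds to 2.04 CPM (counts per 1e6 of the library total) for the former and 0.104 CPM for the latter. Correlations of log2 CPM between libraries ran from 0.875 to 0.954 within stages and from 0.834 to 0.955 between them. Anestrus replicate 2 stood apart in the summed level of 5 cumulus and periovulatory markers. TMM-normalised (library totals multiplied by a size factor), their sum was 3755 CPM against 26.2 to 114 CPM in the other libraries. PTX3 made up most of that sum, with 87305 of its 91144 counts in a single library, and TNFAIP6 had 4742 of 5110. HAS2 had 464 of its 482 counts in 1 library, and PTGS2 2415 of 3524. GREM1 was the exception among the 5 markers, with at most 93 of its 425 counts in any library. Stromal markers were present in every library, as were all 13 granulosa cell markers listed for the follicle.

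The oocyte genes together took 824 counts, 8.66 CPM. ZP2, ZP3 and ZP4 supplied 667 of these (80.9%) and the other 7 genes 157. Among the 90 values of 10 genes in 9 libraries, 30 were 0, 26 were 1 to 3 counts and 34 were above 3. BMP15 and ZAR1 were near 0, with 3 counts each over all libraries. Only the 3 zona genes passed the filter on low counts and entered the test across 13936 genes; GDF9, BMP15, NLRP5, OOEP, ZAR1, DAZL and DDX4 did not.

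**Figure D1:**
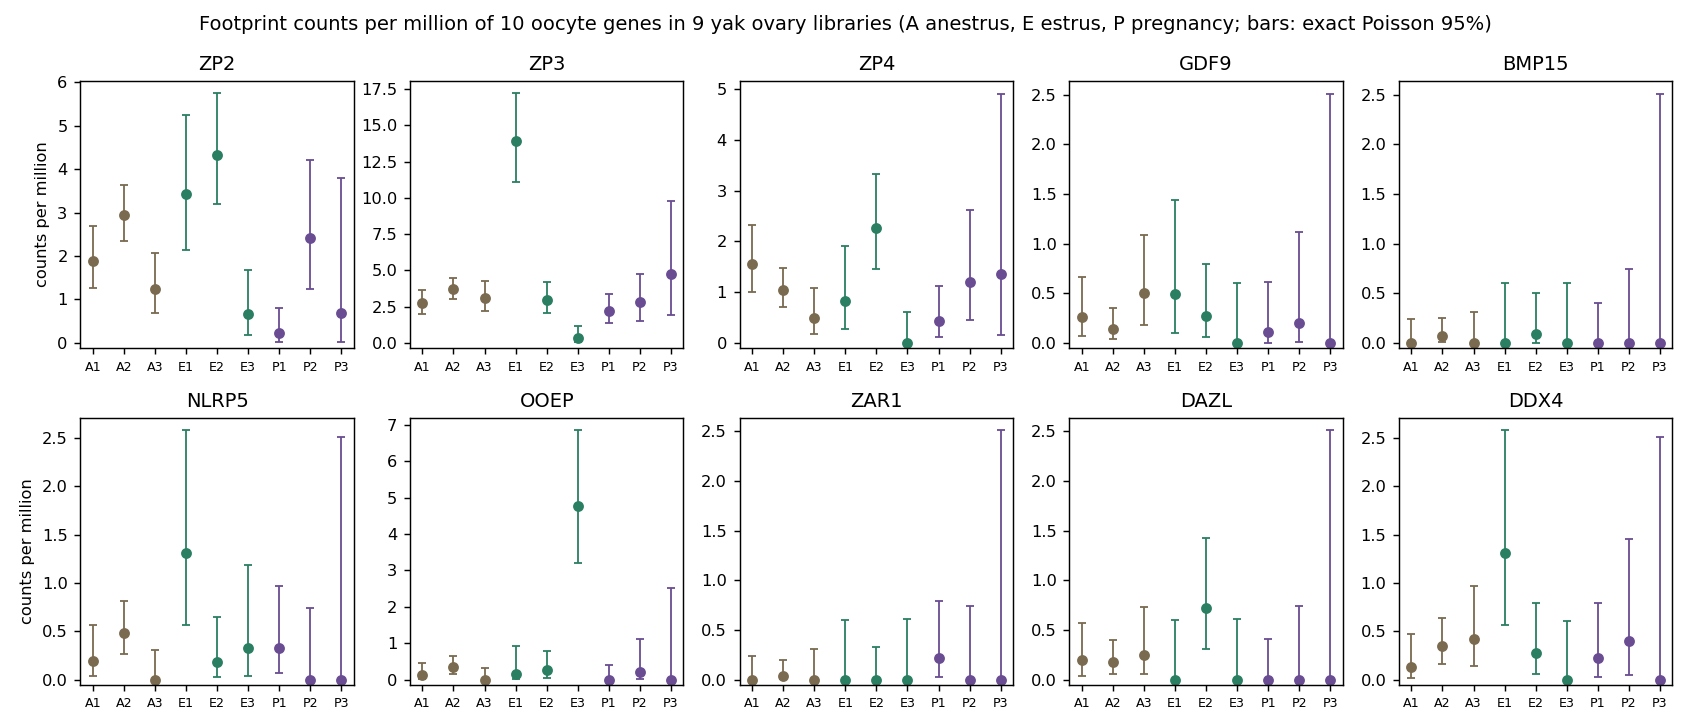
Footprint level of each of the 10 oocyte genes in each library, in CPM of the library total (y axis, own scale per panel), with libraries grouped by stage on the x axis. Bars are exact Poisson 95% intervals of the count; ZP3 is highest in estrus replicate 1 at 13.9 CPM, and OOEP is highest in estrus replicate 3 at 4.77 CPM.

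ZP3 (ENSBTAG00000014834), which encodes a zona glycoprotein involved in sperm binding in the mouse, had the most footprints of the 10 genes, 348 in all. Its counts were 42, 108 and 37 in the anestrus libraries, 85, 33 and 2 in the estrus libraries, and 20, 14 and 7 in the pregnancy libraries. As levels in the library these were 2.72, 3.73 and 3.08 CPM in anestrus, 13.9, 2.98 and 0.329 CPM in estrus, and 2.20, 2.82 and 4.77 CPM in pregnancy. Estrus replicate 1 was high and estrus replicate 3 low, and the other 7 libraries lay between them, so the estrus range enclosed both other stages. The exact Poisson 95% intervals of those extremes were 11.1 to 17.2 CPM and 0.0398 to 1.19 CPM and did not meet. Like all exact intervals of counts and shares here, they cover counting error only. The intervals of log2 fold changes below come from edgeR's fit and also take in the spread between libraries.

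ZP2 (ENSBTAG00000011504), whose product is cleaved after fertilization to block further sperm in the mouse, had 217 footprints. The counts were 29, 85 and 15 in anestrus, 21, 48 and 4 in estrus, and 2, 12 and 1 in pregnancy. As levels these were 1.88, 2.94 and 1.25 CPM, then 3.44, 4.33 and 0.658 CPM, then 0.220, 2.41 and 0.681 CPM. The highest values were those of estrus replicates 2 and 1, the lowest that of pregnancy replicate 1, and all stages overlapped. The single count of pregnancy replicate 3 allows a level of 0.0172 to 3.79 CPM, which takes in 7 of the other 8 levels.

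ZP4 (ENSBTAG00000026085), a zona glycoprotein that cattle make and the mouse lacks, had 102 footprints. In anestrus the counts were 24, 30 and 6, in estrus 5, 25 and 0, and in pregnancy 4, 6 and 2. The levels were 1.56, 1.04 and 0.500 CPM in anestrus, 0.819, 2.26 and 0 CPM in estrus, and 0.441, 1.21 and 1.36 CPM in pregnancy. Its highest library was estrus replicate 2, not replicate 1 as for ZP3, and again the estrus libraries spanned the rest. The count of 0 in estrus replicate 3 has an exact Poisson 95% upper limit of 0.607 CPM, and the floor of 3 counts there is 0.494 CPM.

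No stage difference of a zona gene was larger than the spread between libraries. The question of these comparisons is whether egg coat translation differs between the resting, cycling and pregnant ovary. On the TMM-normalised scale, ZP3 averaged 3.34 ± 0.807 CPM in anestrus, 5.61 ± 6.82 CPM in estrus and 3.05 ± 1.04 CPM in pregnancy (SD, n = 3). ZP2 averaged 2.16 ± 1.10, 2.87 ± 2.02 and 1.08 ± 1.19 CPM in the same order. ZP4 averaged 1.09 ± 0.559, 1.07 ± 1.23 and 0.945 ± 0.451 CPM.

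In edgeR's quasi-likelihood test, estrus over anestrus gave log2 fold changes of 0.41 ± 0.81 (SE) for ZP2, 0.73 ± 0.83 for ZP3 and 0.05 ± 0.93 for ZP4, with Benjamini-Hochberg adjusted p of 0.922, 0.859 and 0.997. Of all 13936 genes, 0% were called in this comparison at an adjusted p under 0.05, 7.04% (981) had an unadjusted p under 0.05, and 11.6% had stages that did not overlap. Pregnancy over estrus gave -1.42 ± 0.93 for ZP2, -0.96 ± 0.90 for ZP3 and -0.39 ± 1.07 for ZP4 in edgeR, with adjusted p of 0.738, 0.812 and 0.952. There too 0% of all genes were called, 7.43% (1035) had an unadjusted p under 0.05 and 13.6% did not overlap. Pregnancy over anestrus gave -1.0 ± 0.92, -0.22 ± 0.89 and -0.34 ± 1.05 in edgeR, with adjusted p of 0.794, 0.951 and 0.940, beside 0% of all genes called, 6.82% (951) at an unadjusted p under 0.05 and 12.8% without overlap.

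The tests left wide room. For ZP2 in pregnancy over estrus the 95% interval of the log2 fold change was -3.48 to 0.65, and for ZP3 in estrus over anestrus it was -1.10 to 2.57. The standard errors of the zona genes, 0.81 to 1.07, compare with a median of 0.32 over all genes tested. Across the 3 stages together, edgeR's F test gave adjusted p of 0.765 for ZP2, 0.829 for ZP3 and 0.977 for ZP4, beside 0% of genes called and 7.16% (998) at an unadjusted p under 0.05. DESeq2 called 15, 29 and 30 genes in the 3 pairs of stages, none of them a zona gene.

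**Figure D2:**
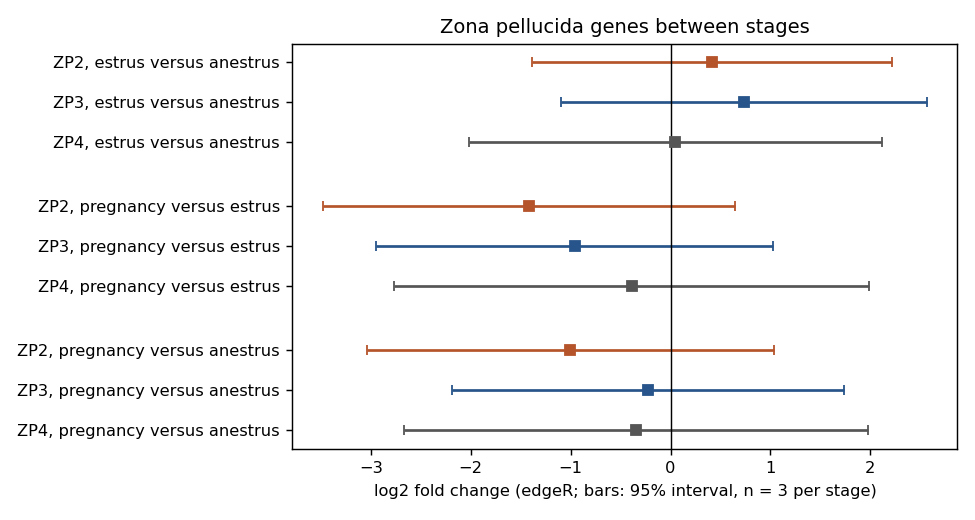
Log2 fold change of ZP2, ZP3 and ZP4 (x axis) in the 3 comparisons of stages, from edgeR's quasi-likelihood fit of 9 libraries. Points are estimates and lines their 95% intervals, and each of the 9 intervals takes in 0.

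The signs of several of these differences rested on 1 library. Without estrus replicate 1, ZP3 in estrus over anestrus went from 0.73 to -0.86, and in pregnancy over estrus from -0.96 to 0.65. Without estrus replicate 2, ZP4 went from 0.05 to -1.44 in estrus over anestrus and from -0.39 to 1.09 in pregnancy over estrus, and ZP2 from 0.41 to -0.14 in estrus over anestrus. ZP4 also turned to -0.29 in estrus over anestrus without anestrus replicate 3, and to 0.10 in pregnancy over estrus without pregnancy replicate 1. In pregnancy over anestrus, ZP4 turned to 0.14 and ZP3 to 0.014 without pregnancy replicate 1, and ZP4 to 0.018 without anestrus replicate 1.

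The make-up of the zona footprints also differed between libraries of the same stage. ZP3 took 76.6% of the zona counts in estrus replicate 1 (exact 95% interval 67.6 to 84.1%) and 31.1% in estrus replicate 2 (22.5 to 40.9%), intervals that did not meet. ZP2 took 18.9% (12.1 to 27.5%) and 45.3% (35.6 to 55.2%) in the same libraries, and ZP4 4.50% (1.48 to 10.2%) and 23.6% (15.9 to 32.8%). In anestrus the ZP3 share ran from 44.2 to 63.8%. Pregnancy replicate 1 had a ZP3 share of 76.9% (56.4 to 91.0%), whereas estrus replicate 3 and pregnancy replicate 3 held only 6 and 10 zona counts, too few to place their shares.

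**Figure D3:**
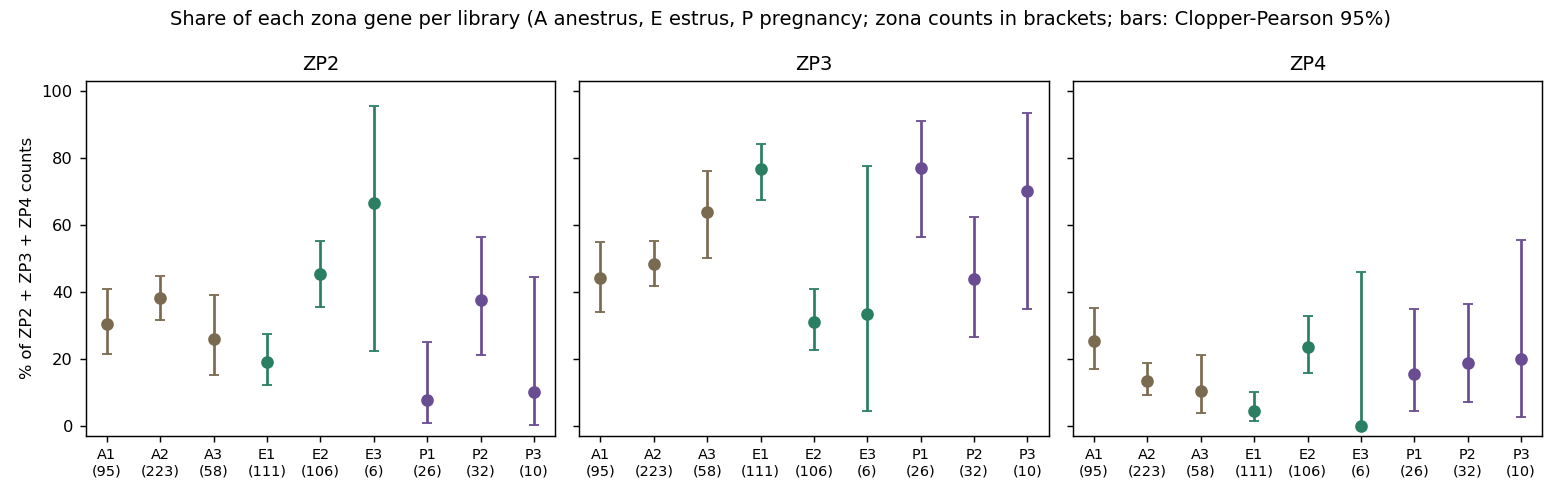
Share of ZP2, ZP3 and ZP4 in the summed zona counts of each library, in percent (y axis), with exact Clopper-Pearson 95% intervals as bars. The ZP3 share is 76.6% in estrus replicate 1 and 31.1% in estrus replicate 2.

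Over the 9 libraries, the levels of the zona genes were positively but loosely related, in 3 pairs tested with exact two-sided permutation of log2 CPM. ZP2 and ZP4 had r = 0.62 (exact permutation p = 0.0715, adjusted 0.133) and rho = 0.58. ZP3 and ZP4 had r = 0.64 (exact p = 0.0884, adjusted 0.133) and rho = 0.32, and ZP2 and ZP3 had r = 0.49 (exact p = 0.181, adjusted 0.181) and rho = 0.57. No pair passed the adjustment. With the 2 libraries farthest from the median left out, r became 0.87 for ZP2 and ZP4, 0.43 for ZP3 and ZP4, and 0.75 for ZP2 and ZP3. The value for ZP3 and ZP4 rested on estrus replicate 3, since r was -0.010 without it. With each stage's mean removed, r was 0.81, 0.64 and 0.59, in the same order; a single stage has too few libraries for a value of its own.

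GDF9 and BMP15 are the oocyte's signals to granulosa cells, and BMP15 dosage sets ovulation rate in sheep. GDF9 (ENSBTAG00000009478) had 22 footprints, with counts of 4, 4 and 6 in anestrus, 3, 3 and 0 in estrus, and 1, 1 and 0 in pregnancy. Its pooled level was 0.248 CPM in anestrus (exact 95% interval 0.136 to 0.417), 0.258 CPM in estrus (0.0947 to 0.562) and 0.129 CPM in pregnancy (0.0156 to 0.466), and these intervals overlap. BMP15 (ENSBTAG00000045782) had 2 counts in anestrus replicate 2, 1 in estrus replicate 2 and 0 in the remaining libraries. The pooled count of 0 in the pregnancy libraries has an exact 95% upper limit of 0.238 CPM (0.193 CPM at the floor of 3 counts), above the anestrus level of 0.0355 CPM, so a difference was not detectable at this depth.

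NLRP5 and OOEP encode parts of the subcortical maternal complex, which mouse embryos need for early cleavage, and ZAR1 encodes an RNA-binding protein of the oocyte. NLRP5 (ENSBTAG00000013247) had counts of 3, 14 and 0 in anestrus, 8, 2 and 2 in estrus, and 3, 0 and 0 in pregnancy. Estrus replicate 1 had its highest level, 1.31 CPM (0.566 to 2.58). ZAR1 (ENSBTAG00000004886) had 1 count in anestrus replicate 2 and 2 in pregnancy replicate 1. In the RefSeq annotation of a yak assembly (Bosgru_T2T1.0) ZAR1 overlaps FRYL, and whether the counting used strand is not given in the sources used here, so even these counts are uncertain.

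OOEP (ENSBTAG00000019600) had most of its footprints in 1 library. Its counts were 2, 10 and 0 in anestrus, 1, 3 and 29 in estrus, and 0, 1 and 0 in pregnancy, so 29 of its 46 footprints came from estrus replicate 3. The level there was 4.77 CPM (3.20 to 6.85) against 0 to 0.346 CPM in the other 8 libraries. That same library had the lowest levels of ZP3 and ZP4, and zona genes made up 16.2% of its oocyte gene counts, against 76.5 to 100% elsewhere. This share is no separate result, as 29 of the 37 oocyte gene counts there were OOEP and only 6 were zona. In an edgeR fit with no filter on low counts, OOEP had a log2 fold change of 3.09 ± 1.39 in estrus over anestrus (adjusted p = 0.733) and -4.46 ± 1.87 in pregnancy over estrus (adjusted p = 0.769). The unadjusted p in edgeR were 0.0449 and 0.0332, and 6.73% and 6.45% of the 18089 genes of that fit had an unadjusted p under 0.05 in these comparisons.

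DAZL and DDX4 encode an RNA-binding translational regulator and an RNA helicase of germ cells. DAZL (ENSBTAG00000000502) had 3, 5 and 3 counts in anestrus, 0, 8 and 0 in estrus, and 0 in each pregnancy library. The anestrus levels were close together, 0.195, 0.173 and 0.250 CPM, and estrus replicate 2 stood at 0.722 CPM (0.312 to 1.42). Pregnancy and anestrus did not overlap for DAZL, as for 11.7% of all genes in the fit without a filter, where its adjusted p in edgeR was 0.762. Each pregnancy library's floor of 3 counts, 0.331, 0.604 and 2.04 CPM, lies above the anestrus levels, while the floor of the pooled pregnancy libraries, 0.193 CPM, is about the pooled anestrus level of 0.195 CPM. The exact 95% intervals of the pooled levels, 0.0974 to 0.349 CPM in anestrus and 0 to 0.238 CPM in pregnancy, overlap. DDX4 (ENSBTAG00000008871) had 2, 10 and 5 counts in anestrus, 8, 3 and 0 in estrus, and 2, 2 and 0 in pregnancy, with its highest level, 1.31 CPM, in estrus replicate 1.

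Without the filter, DAZL in pregnancy against anestrus was the 1 case without overlap in the 30 comparisons of an oocyte gene between stages. The smallest adjusted p of edgeR over these 10 genes was 0.733 in estrus over anestrus, 0.769 in pregnancy over estrus and 0.762 in pregnancy over anestrus, beside 0% of all genes called. Stages did not overlap for 10.8%, 11.5% and 11.7% of all genes in that fit, and in pregnancy over anestrus 6.66% had an unadjusted p under 0.05. In pregnancy replicate 3 the 7 non-zona genes had 0 counts; of their 56 levels in the other libraries, 55 lay under the floor of that library.

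Compared per length, on the FPKM scale (footprints per kilobase of gene and M counts, as deposited), the oocyte genes lay in the lower part of the tissue's genes. Mean levels over the 9 libraries were 3.14 ± 3.00 FPKM for ZP3, 1.45 ± 3.43 for OOEP, 0.913 ± 0.647 for ZP2 and 0.623 ± 0.413 for ZP4 (SD, n = 9). DAZL (0.164 ± 0.260), DDX4 (0.164 ± 0.190), GDF9 (0.157 ± 0.132), NLRP5 (0.0956 ± 0.122), ZAR1 (0.0311 ± 0.0794) and BMP15 (0.0144 ± 0.0288) followed. Of all genes in the tables, 47.0% had a lower mean FPKM than ZP3 and 18.5% a lower one than BMP15. Both shares include the 3563 of 21652 genes that had 0 counts in every library, which are most of those below BMP15.

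The order of neighbours was often not fixed. OOEP's place above ZP2 came from 1 library, as ZP2 was the higher in the other 8. ZP2 exceeded ZP4 in 6 of 9 libraries and ZP4 exceeded DAZL in 8 of 9. DAZL, DDX4, GDF9 and NLRP5 did not differ beyond their spread, each neighbour being the higher in 3 or 4 libraries and the rest being tied.

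The genes that receive and pair with the oocyte's signals had higher footprint levels per length than any of the 10 genes on average. TGFBR1, the type I receptor used by GDF9, stood at 76.5 ± 10.6 FPKM (SD, n = 9), with a range of 50.9 to 90.8. BMPR2, the type II receptor of GDF9 and BMP15, stood at 26.8 ± 3.30, and BMPR1B, the type I receptor of BMP15, at 56.9 ± 16.5. SMAD2, which carries the GDF9 signal to the nucleus, had the second highest mean of the list, 73.4 ± 26.3. KIT, the oocyte and theca receptor of the granulosa cell factor KITLG, stood at 50.9 ± 29.8, from 30.2 to 126 FPKM. These genes are expressed by many ovarian cells, so their levels are those of the tissue.

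**Figure D4:**
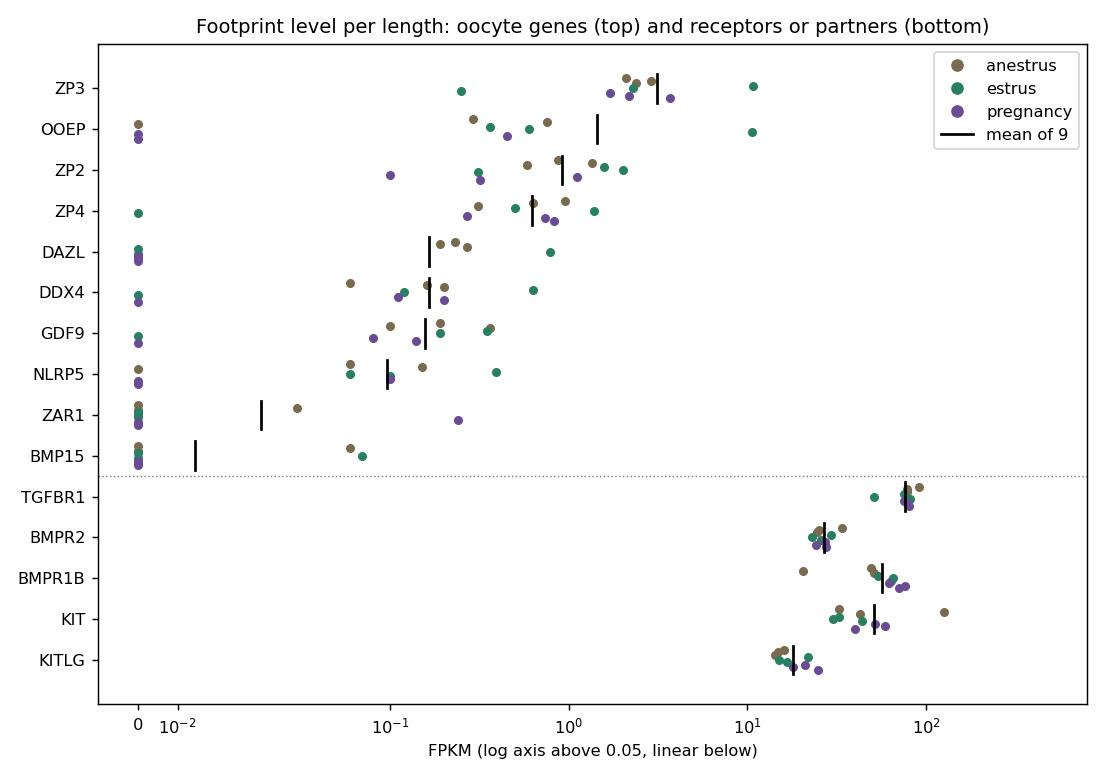
FPKM of the 10 oocyte genes and of TGFBR1, BMPR2, BMPR1B, KIT and KITLG, one point per library, on an axis that is linear near 0 and logarithmic above. The receptors and KITLG lie above 10 FPKM in every library, and the oocyte genes lie below that level except ZP3 in estrus replicate 1 and OOEP in estrus replicate 3, at 10.8 and 10.6 FPKM.

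All 11 receptors and partners were tested and 0 were called by edgeR in any pair of stages, where 0% of all genes were. Their median log2 fold changes were -0.06 in estrus over anestrus, 0.03 in pregnancy over estrus and 0.13 in pregnancy over anestrus, against -0.01, 0.01 and 0.00 for all genes tested. At an unadjusted p under 0.05 stood 1 of them, BMPR1B in pregnancy over anestrus, with 0.69 ± 0.29 (edgeR adjusted p = 0.718); over all genes the share at that level was 6.82%. TGFBR1 had -0.27 ± 0.19 in estrus over anestrus and SMAD2 0.67 ± 0.34 (edgeR adjusted p of 0.760 and 0.718).

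Other genes of the oocyte programme, in 6 further lists by role, were mostly as scarce as the 10. Counting the receptors, the 7 lists held 74 genes, of which 68 were matched, 19 passed the filter and 0 were called by edgeR. ZP1, SOHLH1, NLRP4, NLRP7, OOSP1 and OOSP3 were not analysed here. Listed at 0 in all 9 libraries were KPNA7, MOS, BTG4, DPPA3, PABPN1L, TEX101 and SPO11; with 0 of 95.1 M counts, a level of up to 0.0315 CPM is allowed.

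Among oocyte transcription factors, 1 of 7 matched genes was tested, TAF4B, a TFIID subunit needed for the mouse follicle reserve, at 1.46 FPKM. Its log2 fold changes were 0.37 ± 0.54, -0.28 ± 0.56 and 0.09 ± 0.55 in estrus over anestrus, pregnancy over estrus and pregnancy over anestrus. POU5F1, a pluripotency factor kept in oocytes, stood at 0.734 FPKM. None of 8 genes of the subcortical maternal complex and oocyte NLRP family passed the filter, the highest being TLE6 and PADI6 at 0.408 and 0.228 FPKM. Of 3 egg surface genes matched, ASTL, the protease that cleaves ZP2, had 0.123 FPKM and OOSP2 0.113, and neither was tested.

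RNA handling genes held the exceptions in level. CPEB1, a regulator of poly(A) tails that is also made outside the oocyte, stood at 10.2 FPKM and PATL2, an oocyte RNA-binding protein, at 3.14. PATL2 had the larger changes, 0.10 ± 0.45, 0.70 ± 0.47 and 0.80 ± 0.46 in the 3 comparisons, and did not pass in edgeR (lowest adjusted p = 0.718). Of 12 germ cell RNA and piRNA genes, DND1 (0.639 FPKM) and PIWIL2 (0.339 FPKM) were highest, and PIWIL2 alone was tested, with 0.72 ± 0.96, -1.45 ± 1.13 and -0.73 ± 1.10. Among 14 meiosis genes 4 were tested, with medians of 0.23, -0.25 and 0.11, and SYCE2 and MSH5 were highest at 1.06 and 0.697 FPKM.

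The genes whose pattern was most like that of the zona genes were sought among 13540 genes, by Pearson's r over the 9 libraries with the mean centred log2 CPM of ZP2, ZP3 and ZP4. CMAS (r = 0.96), MIS18A (0.95), METTL25B (0.95), MARCKSL1 (0.95), PCDH12 (0.94), DEPDC1 (0.93), GZMB (0.93) and CEACAM1 (0.93) came first. The ranking is a description only, since the libraries differed in depth and in cell markers. Of the 13540 genes, 80 had r above 0.8, and the median r was -0.005. How many unrelated genes would reach 0.8 over 9 libraries was not estimated, so the 80 are not a set shown to follow the zona genes. The zona mean itself was lowest in estrus replicate 3, at -1.97. A minimum of the 8 genes in that library therefore follows from how they were chosen and is no separate result. CMAS, an enzyme that activates sialic acid, was at 20.1 CPM (TMM-normalised) there against 28.0 to 37.7 CPM elsewhere. MIS18A, a centromere protein, was at 0.843 CPM against 1.91 to 8.45 CPM on the same scale.

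Granulosa cells surround the oocyte, and their markers also varied between libraries of 1 stage. Summed levels in this comparison are TMM-normalised. The summed level of 13 granulosa markers was 7314, 2599 and 3306 CPM in anestrus, 11717, 9545 and 3281 CPM in estrus, and 4043, 9249 and 2397 CPM in pregnancy. SERPINE2 and GJA1 weighed most in this sum, with means of 2363 and 974 CPM. FSHR and AMH had means of 18.0 and 93.9 CPM, so the sum says little about them. The summed zona level was 6.29, 8.81 and 4.68 CPM, then 17.4, 10.3 and 1.01 CPM, then 2.76, 6.50 and 5.96 CPM. Estrus replicates 1 and 2 were the highest libraries in both. Anestrus replicate 2 was low in granulosa markers but next after these in zona genes, and estrus replicate 3 was lowest in zona genes and among the low ones in granulosa markers. The part of follicle content in the zona levels was not tested. Summed theca markers ran from 213 to 1657 CPM in anestrus, 599 to 2474 CPM in estrus and 926 to 5038 CPM in pregnancy, and luteal markers from 498 to 1513, 424 to 1082 and 887 to 1556 CPM.

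**Figure D5:**
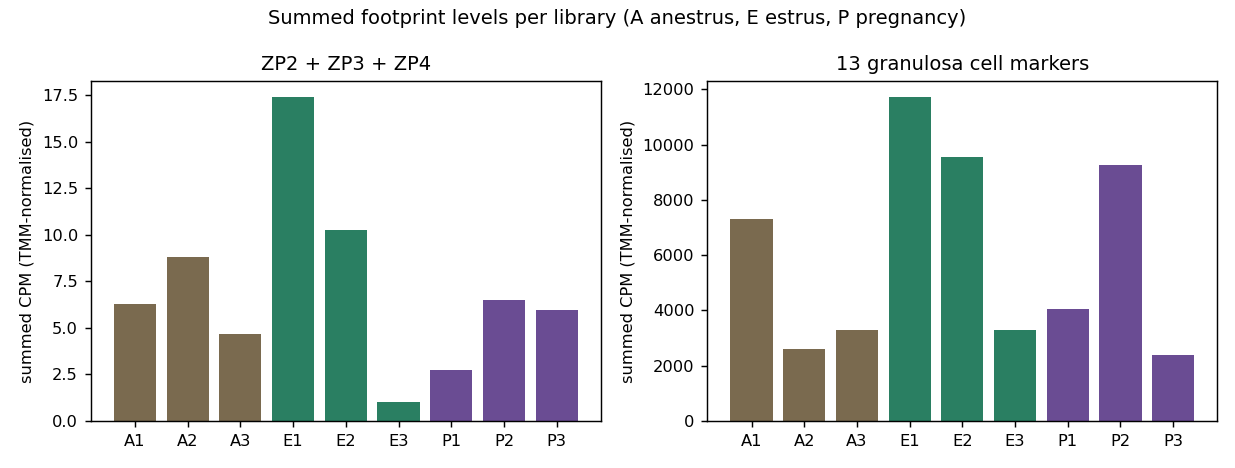
Summed TMM-normalised CPM of ZP2, ZP3 and ZP4 and of 13 granulosa cell markers in each library, as bars from 0. Estrus replicate 1 is highest in both, at 17.4 and 11717 CPM, while anestrus replicate 2 has 8.81 CPM of zona genes beside 2599 CPM of granulosa markers.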

How the data were processed

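Ribosome footprints of 9 ovary libraries were analysed, grouped by the stage in the sample titles. Per the submitters' processing notes, Bowtie2 and RSEM were used; for their versions, the genome build and the use of strand the sources used here give nothing, and 2243 gene descriptions name Bos taurus. The estimated counts that the authors deposited were whole numbers and were used unchanged. The deposited FPKM values, which as their ratio to the counts shows are scaled by gene length and depth, served for comparing levels between genes. The authors' deposited table of comparisons gives a log2 fold change, a p-value and an FDR whose test is not stated.

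Stages were compared with edgeR 4.0.16 in R 4.3.3 (quasi-likelihood F test on all 9 libraries after filterByExpr, with TMM factors of 0.876 to 1.144). A Benjamini-Hochberg adjusted p under 0.05 over 13936 genes, which held 99.9% of counts, was a call; the biological coefficient of variation was 34.5%. Correlations used log2 CPM with a prior count of 2. Count intervals are exact Poisson or Clopper-Pearson (95%), and the floor is 3 counts. The scripts were tested on simulated data. Alternatives were DESeq2 1.42.0, limma 3.58.1 (voom), other size factors, other filters, a replicate block, a depth covariate and each library left out. Leaving out anestrus replicate 2 and pregnancy replicate 3 together was added after seeing the data.

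The 10 genes and the lists were chosen with earlier results of these data known. Genes named are the 10, the 2 of each list with the highest mean FPKM, any called, and the 8 with a mean of 1 CPM or more most like the zona genes; BMPR2, BMPR1B, KIT and the genes listed at 0 were named after their values were seen. By symbol, 9 of the 10 were found in the RefSeq gene table. The missing gene was OOEP, whose overlap with other genes could therefore not be looked up. No coordinates or sequences are given. Same-numbered replicates of different stages deviated together only loosely (r from -0.03 to 0.26). Differently numbered replicates were not set beside them, so this cannot settle whether the numbers mark pairs. They were not taken as pairs, since no label states a pairing. No RNA-seq was matched, so mRNA amount and translation are not separated.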

Additional observations from a re-analysis of the deposited data

How the results depend on the processing

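The count of called genes was 0 in each comparison in edgeR and depended on the tool: DESeq2 called 15 for estrus over anestrus, 29 for pregnancy over estrus, 30 for pregnancy over anestrus and 57 across the 3 stages, and the authors' deposited table lists 31, 23 and 36 in the 3 pairs. Leaving out a replicate in turn gave 0 to 2, 0 to 1, 0 to 0 and 0 to 1 calls in the same order, the 2 and the last 1 without estrus replicate 3. No zona gene was called in any of 197 alternatives (smallest adjusted p 0.329), of which 181 kept the sign and 16 reversed it. Besides leaving out replicates, the sign reversed for ZP4 in estrus over anestrus with voom (-0.069), with the replicate block (-0.34) and in the authors' deposited table (-0.0077). It also reversed with library size as a covariate in pregnancy over anestrus for ZP2 (0.080) and ZP4 (0.24), and in the authors' deposited table for ZP3 (0.039). The cause was not tested. The block by replicate number, a pairing that was not settled, called 0 genes in all comparisons. Without both anestrus replicate 2 and pregnancy replicate 3, 0 genes were called.

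With each replicate left out in turn, estrus over anestrus ranged from -0.14 to 0.87 for ZP2, -0.86 to 1.28 for ZP3 and -1.44 to 0.57 for ZP4. Pregnancy over estrus ranged from -3.23 to -0.76, -1.51 to 0.65 and -0.91 to 1.09, and pregnancy over anestrus from -2.84 to -0.35, -0.45 to 0.014 and -0.74 to 0.14. Correlations ranged from 0.39 to 0.58 for ZP2 and ZP3, 0.51 to 0.73 for ZP2 and ZP4, and -0.010 to 0.85 for ZP3 and ZP4; on log2(FPKM + 1) they were 0.49, 0.64 and 0.38. Depth limits the genes under 50 counts in total, where 1 library can set a stage's level.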

Other observations

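The library-specific OOEP level was set beside other genes by a rule chosen after the values were seen: at least 20 counts in a library and at least 4 times the highest level of the other 8 libraries. In estrus replicate 3, 11 of the 11764 genes with 20 or more counts met it, OOEP among them. In anestrus replicate 2 there were 98 such genes of 13735, in pregnancy replicate 3 there were 15 of 8666, and in the other libraries 3 to 8. The 20 counts stand for a higher level in a shallower library, so these numbers are not on equal terms. Other oocyte genes were not high in estrus replicate 3: NLRP5 had 2 counts there, and GDF9, BMP15, ZAR1, DAZL, DDX4 and ZP4 had 0. Sums of lists are given as TMM-normalised CPM. The list of further subcortical maternal complex and oocyte NLRP genes summed to 1.85 CPM in that library, against 1.61 to 3.45 CPM elsewhere. Of its 8 genes, 3 were counted in that library. The oocyte transcription factors summed to 7.59 CPM there against 1.93 to 8.92 CPM elsewhere. The 3 egg surface genes summed to 0.506 CPM against 0 to 0.596 CPM. Of the transcription factors, POU5F1, with 21 counts there against 0 to 11 elsewhere, was looked at as an exception, also after its values were seen. In the authors' deposited table OOEP had a p of 0.0235 (FDR 0.675) in estrus against anestrus and 0.0191 (FDR 0.789) in pregnancy against estrus, in a test that is not stated there.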
